A study of Mus musculus with 24 samples.

Results

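Mitochondrial ribosomal proteins are the protein subunits of the ribosome inside mitochondria, and their messenger RNAs were followed here in mouse fat under dietary restriction and rapamycin. They were taken as every probe of the deposited intensity table whose annotated symbol is Mrpl or Mrps followed by digits, with or without a trailing letter. The rule found 132 of 45281 probes, which name 76 of the 19057 genes with a symbol. Of these, 107 probes of 71 genes were detected on at least 8 of the 24 arrays and were tested, and 46 of the 71 belong to the large subunit and 25 to the small subunit. The rule reads symbols and uses no measured value, although the gene family was proposed with earlier results of these data known.

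All mitochondrial ribosomal proteins are encoded in the nucleus, made in the cytosol and imported, and there they assemble with ribosomal RNA transcribed from mitochondrial DNA. The ribosome they form translates the few messenger RNAs of the mitochondrial genome, all of which code for subunits of the respiratory chain and the ATP synthase. The large subunit joins amino acids and the small subunit reads the messenger RNA. In white fat the respiratory chain supplies the energy for fat storage and lipid turnover.

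All samples came from male C57BL6/J mice with no transgene named, aged 8 months. The ad libitum group (AL) ate freely, the DR group was held on 40% dietary restriction, and the Rapa group received 14 ppm rapamycin, which inhibits mTOR complex 1. The mice were 2 months old when treatment started and were treated for 6 months, and each group holds 8 samples with 1 Illumina bead array per sample. Nothing in the labels ties each sample to a separate animal, and the p-values therefore reflect the spread between samples, which may be technical.

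The labels disagree on the tissue: epididymal fat stands in the source name and the design, but liver in the tissue entry and in the RNA protocol. The fat hormones leptin (Lep) and adiponectin (Adipoq) were detected on 24 of 24 arrays, and the liver genes albumin (Alb) and fibrinogen beta chain (Fgb) on 0. Detection on all 24 arrays held for 10 of the 11 adipocyte markers present on the platform and for 0 of 10 hepatocyte markers. Of the hepatocyte markers, 3 were detected on no array by their brightest probe, and 2 were detected on at least 8 arrays and tested. Of 4 brown adipocyte markers, 2 were tested and Ucp1, which defines these cells, was detected on 0 arrays. The median of the 4 ranged from 5.22 to 5.87 in AL, 5.62 to 6.51 in DR and 4.82 to 5.49 in Rapa. Of the tested pair, Cidea was called higher in DR than in AL, Cox8b lower in Rapa than in AL and both higher in DR than in Rapa, and the medians of the pair were 0.76, -1.38 and 2.14. Cox8b is also counted below among the respiratory chain subunits. The median of 14 epididymis and testis markers, tissue that lies against this fat pad, was above a log2 intensity of 6 on 8 arrays (DR1, DR3, DR5, DR7, DR8, Rapa6, Rapa7 and Rapa8). It ranged from 4.61 to 5.77 in AL, from 5.26 to 9.60 in DR and from 4.68 to 9.81 in Rapa, so the called members, the counts and the medians are given with and without those 8 arrays. The median of 7 macrophage markers ranged from 7.77 to 9.55 in AL, 7.17 to 8.59 in DR and 7.42 to 9.68 in Rapa, and 4 of these 7 genes fell in DR against AL while 1 rose. The median of 4 mesothelium markers ranged from 5.92 to 7.26 in AL, 6.01 to 8.43 in DR and 6.25 to 7.94 in Rapa. The median of the 11 adipocyte markers ranged from 13.24 to 13.96 in AL, 12.95 to 13.48 in DR and 12.79 to 13.60 in Rapa. By value 10 of the 11 lay below AL in Rapa (median -0.21, 0 called), and 10 of 11 lay above Rapa in DR (median 0.21, 2 called higher and 1 lower). Of 3 tested skeletal muscle markers, 2 were called lower in DR and 1 in Rapa, each against AL. The part of brown adipocytes, adipocytes, macrophages, muscle and mesothelium in the results on the members was not tested, and in bulk tissue fewer cells of a type and less RNA per cell cannot be told apart. Array brightness, as the 75th percentile of intensity, spanned 24.8 to 111.7 in AL, 17.5 to 78.9 in DR and 15 to 106.7 in Rapa before normalization.

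Promoters were read to see what the members share apart from their name. RefSeq's promoter table (GRCm38.p6) holds 67 of the 76 members, each with 250 bases before and 50 after the gene's start. A gene was counted as holding a motif if any of its promoters in the table held it. CCGGAAG, the core bound by ETS factors such as GABP, stood in 26 of the 67 members on either strand, or 38.8%. That compares with 19.7% of 7947 genes tested on the arrays and 9.93% of all 27025 genes with a promoter in the table. CGCATGCG, a palindrome bound by NRF1, stood in 7 members, or 10.4% against 4.3% and 2.07%. AAGATGGCG, the site of YY1, stood in 8, or 11.9% against 3.49% and 1.64%. CCGGAAG and AAGATGGCG can share letters where the former runs into the latter, but no such overlap stood in a member's promoter. At least 1 motif stood in 36 of the 67. A match is a description of the letters and not a binding site.

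The 100 bases before the start are printed for 6 members, 5′ to 3′ on the gene's own strand. The first group of 3 is shown because these members had the smallest adjusted p-values in the comparison of DR with AL, and no motif was found in their 300-base windows. Mrps30 lies on the minus strand at chr13:118387253-118387352, Mrpl1 on the plus strand at chr5:96210015-96210114 and Mrpl2 on the plus strand at chr17:46646121-46646220.
Mrps30: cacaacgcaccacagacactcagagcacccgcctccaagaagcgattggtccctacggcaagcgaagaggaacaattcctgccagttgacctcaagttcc
Mrpl1: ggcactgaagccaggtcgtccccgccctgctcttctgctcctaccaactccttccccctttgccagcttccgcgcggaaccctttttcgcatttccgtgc
Mrpl2: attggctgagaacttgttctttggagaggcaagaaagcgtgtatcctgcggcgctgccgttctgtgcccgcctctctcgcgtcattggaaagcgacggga

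The other group is shown because it carries the motifs, which stand in capitals. Mrpl22, on the plus strand at chr11:58171564-58171663, has CCGGAAG followed by CGCATGCG. Mrpl43, on the minus strand at chr19:45006443-45006542, has CCGGAAG at 2 places. Mrpl3, on the plus strand at chr9:105053168-105053267, has CCGGAAG at 1 place.
Mrpl22: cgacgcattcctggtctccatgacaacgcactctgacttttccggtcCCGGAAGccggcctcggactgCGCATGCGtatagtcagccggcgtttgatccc
Mrpl43: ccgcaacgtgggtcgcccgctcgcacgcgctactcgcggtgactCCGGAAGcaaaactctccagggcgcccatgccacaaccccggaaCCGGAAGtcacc
Mrpl3: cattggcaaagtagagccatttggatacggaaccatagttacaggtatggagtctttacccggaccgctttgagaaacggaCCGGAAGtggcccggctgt

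Expression of the members in this tissue was broad. Of the 71 tested genes, 65 were detected on all 24 arrays, and the least often detected was Mrps27, on 11. The 5 members not tested were Mrpl19, Mrpl32, Mrpl39, Mrpl45 and Mrps14, whose probes were detected on at most 1, 0, 6, 5 and 4 arrays. The spread of log2 intensity between arrays of a group (SD) had a median of 0.32 over the members, from 0.15 for Mrpl34 to 0.69 for Mrpl55, against 0.40 over all 9836 genes tested. The median log2 intensity of the members on an array ranged from 8.91 (AL1) to 9.44 (AL3) in AL, from 9.02 (DR5) to 9.64 (DR6) in DR and from 8.92 (Rapa8) to 9.21 (Rapa2) in Rapa. The 3 groups therefore overlapped in the median of the members.

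**Figure D1:**
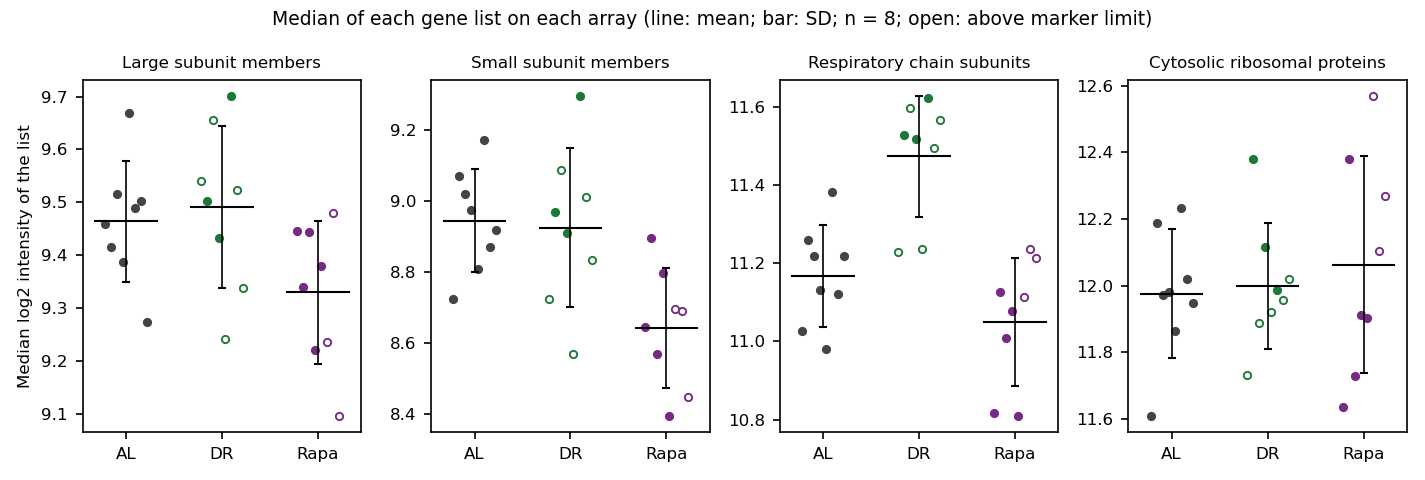
Each point is the median log2 intensity of a gene list on 1 array, for large subunit members, small subunit members, respiratory chain subunits and cytosolic ribosomal proteins, by group (line, mean; bar, SD; n = 8). Open points are the 8 arrays with epididymis and testis markers above the limit, and the 3 groups overlap in every panel. In the respiratory chain panel the overlap is narrow between DR (11.23 to 11.62) and Rapa (10.81 to 11.24).

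Dietary restriction against ad libitum feeding asks which subunits changed with chronic food restriction. In DR, 5 of the 71 tested members rose (Mrps30, Mrpl1, Mrpl2, Mrpl38 and Mrps24), by 1.31-fold to 1.58-fold, and Mrpl54 fell. The 6 called members are 8.45% of 71, against 11.7% called among all 9836 genes at the same threshold (limma, Benjamini-Hochberg adjusted p under 0.05). By direction, 7.04% of members rose and 1.41% fell, against 5.2% and 6.5% of all genes. In the large subunit 4 of 46 rose and 1 fell, and in the small subunit 1 of 25 rose.

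Among the large subunit members, Mrps30 carries a small subunit name but sits in the large subunit and has no bacterial counterpart. Its log2 intensity ranged from 9.32 to 9.95 in AL (median 9.79), from 10.22 to 10.53 in DR (median 10.45) and from 9.05 to 10.04 in Rapa (median 9.59). Every DR array lay above every AL array and every Rapa array. The group means were 9.74 ± 0.22 in AL and 10.40 ± 0.12 in DR (SD, n = 8), a rise of 0.66 ± 0.13 (log2, SE; adjusted p = 0.00119), or 1.58-fold.

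Mrpl1 forms the mobile stalk beside the site where transfer RNA leaves the ribosome. It ranged from 8.17 to 8.50 in AL (median 8.29), from 8.64 to 9.23 in DR (median 8.80) and from 7.60 to 8.26 in Rapa (median 8.05). DR lay above AL without overlap, and 7 of 8 Rapa arrays lay below the lowest AL array. The rise in DR was 0.54 ± 0.12 (adjusted p = 0.00320, limma). A further kept probe of Mrpl1, detected on 16 arrays, gave 0.12 ± 0.25 (adjusted p = 0.844) for the same comparison.

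Mrpl2, a core protein close to the centre that forms peptide bonds, ranged from 8.60 to 9.18 in AL (median 8.84), from 9.05 to 9.56 in DR (median 9.45) and from 8.48 to 8.84 in Rapa (median 8.61). In DR, 6 of 8 arrays lay above every AL array, and DR and Rapa did not overlap. The rise against AL was 0.48 ± 0.12 (adjusted p = 0.00737, limma).

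Mrpl38, a mitochondria-specific protein of the large subunit, ranged from 9.69 to 10.60 in AL (median 9.86), from 10.17 to 11.00 in DR (median 10.56) and from 9.49 to 10.33 in Rapa (median 9.90). DR and AL overlapped, and 4 of 8 DR arrays exceeded the whole AL range. The rise was 0.59 ± 0.16 (adjusted p = 0.0180, limma), whereas another probe of the gene, detected on 20 arrays, gave -0.16 ± 0.20 (adjusted p = 0.720).

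Mrpl54 is a further mitochondria-specific large subunit protein and the only tested member to fall in DR against AL at the threshold. Its levels ranged from 9.83 to 10.46 in AL (median 10.12), from 9.27 to 10.17 in DR (median 9.51) and from 9.65 to 10.38 in Rapa (median 10.00). In DR, 6 of 8 arrays lay below every AL array. The change was -0.54 ± 0.15 (adjusted p = 0.0188, limma), and the value against Rapa was -0.43 ± 0.15 (adjusted p = 0.0639).

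In the small subunit, Mrps24, a protein of the subunit's head, ranged from 11.31 to 12.02 in AL (median 11.48), from 11.69 to 12.11 in DR (median 11.90) and from 11.23 to 11.75 in Rapa (median 11.58). The highest AL value came from AL1 alone, and 2 of 8 DR arrays lay above it. The rise was 0.39 ± 0.12 (adjusted p = 0.0343, limma). This call was lost when any of AL2 to AL8, DR3, DR6, DR7 or DR8 was left out (highest adjusted p = 0.0742).

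Members with changes as large did not all pass. Mrps6, a small subunit protein with a bacterial counterpart, had the lowest value of the comparison at -0.61 ± 0.21 (adjusted p = 0.0645, limma). Its levels were 9.82 to 11.33 in AL and 9.39 to 10.67 in DR, and they overlapped. Mrpl9 gave 0.62 ± 0.21 (adjusted p = 0.0651). Mrps27, detected on 11 arrays, gave -0.35 ± 0.21 (adjusted p = 0.323). Without adjustment, p was under 0.05 for 14 members, 9 higher and 5 lower, or 19.7% against 25.2% of all genes. The median log2 fold change over the 71 tested members was 0.05 against -0.01 over all genes, with 41 above 0 and 30 below. The members' median turned to -0.005 with the authors' processed values, which are in z units, beside -0.033 over all genes. With scaling to the median of all probes it turned to -0.302, beside -0.277 over all genes.

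Without the 8 arrays high in epididymis and testis markers, which leaves 8 AL, 3 DR and 5 Rapa arrays, Mrps30 alone of the 71 kept its call (0.76, adjusted p = 0.0187, limma). The values of the other 5 called members kept their direction, with Mrpl1 at 0.38 (adjusted p = 0.216), Mrpl2 at 0.54 (0.0743), Mrpl38 at 0.33 (0.452), Mrps24 at 0.32 (0.337) and Mrpl54 at -0.49 (0.230). The median over members was then 0.08, and the share of all genes called was 4.77%.

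**Figure D2:**
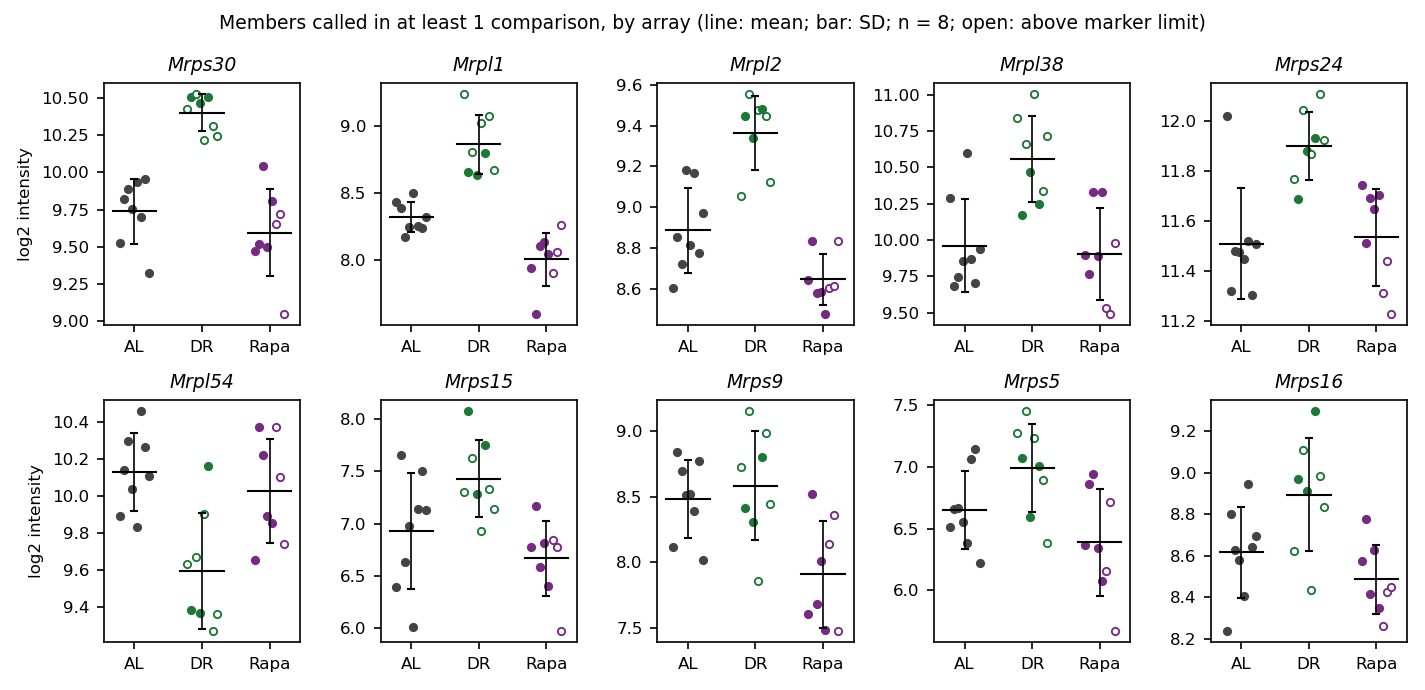
Log2 intensity by array of the 10 members called in at least 1 comparison, in AL, DR and Rapa (line, mean; bar, SD; n = 8 arrays). Open points are arrays with epididymis and testis markers above the limit; for Mrps30 and Mrpl1 all 8 DR points lie above all AL and all Rapa points.

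Rapamycin against ad libitum feeding asks whether the drug changed the same genes. The test called 0 of 71 members, where it called 0.153% of all genes (15 of 9836, all lower), and no member had groups without overlap, against 0.0915% of all genes. By value, 56 of 71 tested members, or 78.9%, lay below AL, against 50.9% of all genes. The median log2 fold change was -0.12 over the members and -0.01 over all genes, with -0.12 in the large subunit and -0.10 in the small subunit. Without adjustment, p was under 0.05 for 10 members, all with lower values, or 14.1% against 9.61% of all genes (5.8% lower). With limma's array weights in place of equal weights, 2 members passed, Mrps18b and Mrps22, beside 0.488% of all genes.

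The members with the lowest fitted values were small subunit Mrps2 (-0.66 ± 0.21, adjusted p = 0.255, limma), Mrps9 (-0.57 ± 0.19, 0.288) and large subunit Mrpl55 (-0.56 ± 0.32, 0.600). Mrps2 was detected on 15 arrays, and its levels of 5.00 to 6.51 in AL (median 5.93) and 4.61 to 5.82 in Rapa (median 5.13) lie near the background. The value of Mrpl55 includes a Rapa array at 4.43 and an AL array at 5.25, each far below the rest of its group. The smallest adjusted p belonged to Mrps18b, at -0.54 ± 0.13 (adjusted p = 0.103, limma). Its AL arrays ranged from 9.24 to 10.06 (median 9.74) and its Rapa arrays from 9.01 to 9.41 (median 9.16), with 6 of 8 Rapa arrays below every AL array. It passed when AL1 was left out, beside 0.366% of all genes.

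Mrps22, a small subunit protein whose gene is mutated in human mitochondrial disease, was picked out after its value was seen. It gave -0.52 ± 0.13 (adjusted p = 0.106, limma), with AL from 8.72 to 9.30 (median 9.05) and Rapa from 8.23 to 8.80 (median 8.57). In Rapa, 7 of 8 arrays lay below every AL array. With the replicate numbers of like brightness described below as a block, Mrps22 (adjusted p = 0.0283) and Mrps18b (0.0301) both passed, beside 1.57% of all genes. At the other end stood Mrpl58, a hydrolase that releases stalled peptides, at 0.29 ± 0.20 (adjusted p = 0.677), followed by Mrpl57 at 0.16 and Mrps23 at 0.14. Without the 8 marker-high arrays the count stayed at 0 of 71, beside 0.234% of all genes called. Then 32.4% of members lay above AL against 21.1% with those arrays, and the members' median was -0.14.

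**Figure D3:**
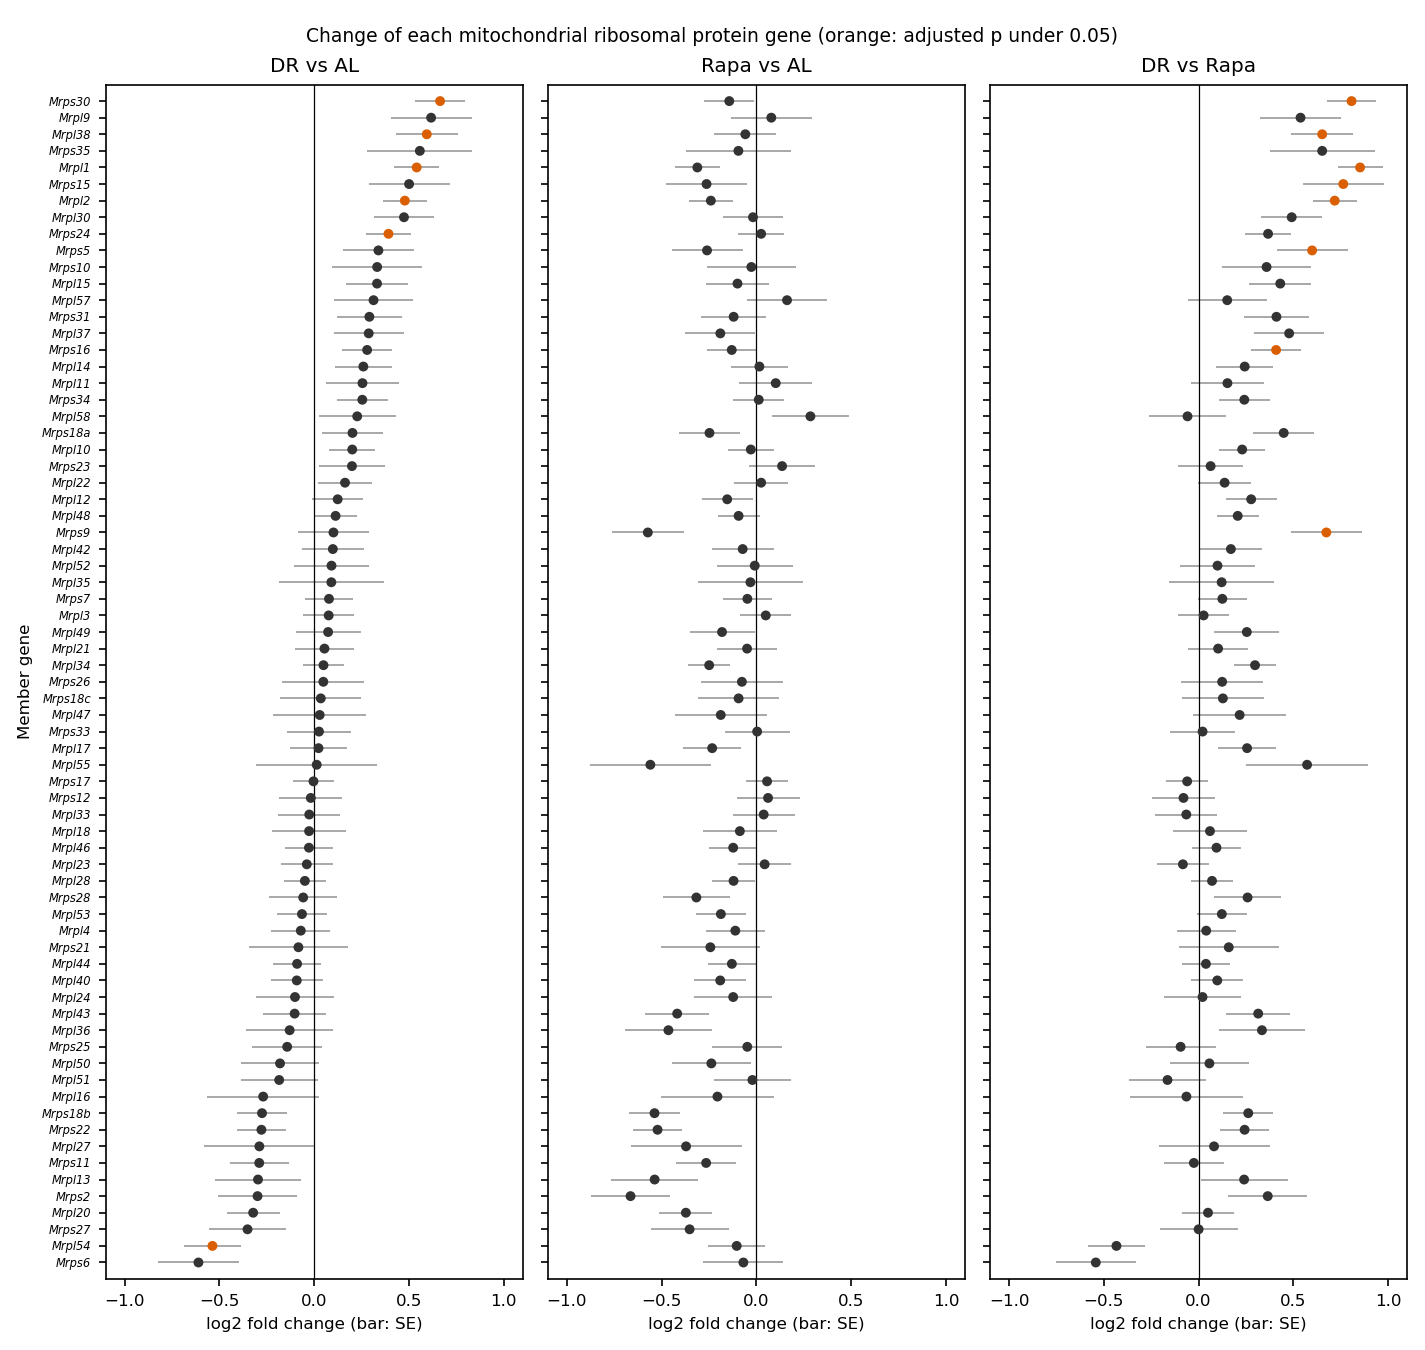
Log2 fold change of each of the 71 tested members in the 3 comparisons (x axis; bar, SE), ordered by DR against AL; orange points passed the adjusted p threshold. Calls number 6, 0 and 8 from left to right, and 56 points of the middle panel lie below 0.

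Dietary restriction against rapamycin sets the treatments side by side. In DR, 8 of 71 tested members were higher than in Rapa and 0 were lower. The 8 are 11.3% of 71, close to the 11.4% of all genes called in either direction, of which 5.88% were higher and 5.54% lower. Large subunit Mrpl1, Mrpl2, Mrps30 and Mrpl38 and small subunit Mrps15, Mrps9, Mrps5 and Mrps16 made up the 8. With the authors' processed values the large subunit calls held. The calls of Mrps15, Mrps9, Mrps5 and Mrps16 were then lost (adjusted p = 0.171, 0.143, 0.241 and 0.25, limma). With median scaling over the kept probes in place of quantiles, Mrps5 (0.0602) and Mrps16 (0.0741) lost their calls. For Mrpl1, Mrpl2 and Mrps30 the groups did not overlap, which is 4.23% of members against 2.26% of all genes in either direction and 1.3% higher in DR. In DR against AL the same count was 2 members, Mrps30 and Mrpl1, or 2.82% against 2.8% in either direction and 1.24% higher in DR.

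The levels of the 4 large subunit members are given above. DR exceeded Rapa by 0.85 ± 0.12 for Mrpl1 (adjusted p = 2.3e-05, limma), which is 1.81-fold. The difference was 0.72 ± 0.12 for Mrpl2 (adjusted p = 0.000133) and 0.81 ± 0.13 for Mrps30 (adjusted p = 0.000142). Mrpl38 differed by 0.65 ± 0.16 (adjusted p = 0.00932), and 6 of 8 DR arrays exceeded the whole Rapa range.

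Mrps15, a small subunit protein with a bacterial counterpart, ranged from 6.93 to 8.08 in DR (median 7.32), from 5.96 to 7.17 in Rapa (median 6.78) and from 6.01 to 7.65 in AL (median 7.05). In DR, 6 of 8 arrays lay above every Rapa array. The difference was 0.76 ± 0.21 (adjusted p = 0.0202, limma), and a dimmer probe detected on 13 arrays gave 0.28 ± 0.20 (adjusted p = 0.441).

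Mrps9, a protein of the small subunit's head, ranged from 7.86 to 9.15 in DR (median 8.58), from 7.47 to 8.52 in Rapa (median 7.84) and from 8.02 to 8.84 in AL (median 8.51). Its DR and AL levels covered a like range, while 5 of 8 Rapa arrays lay below every AL array. The difference between DR and Rapa was 0.67 ± 0.19 (adjusted p = 0.0206, limma).

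Mrps5 is a small subunit protein known from work that linked its level to lifespan across mouse strains and its knockdown to long life in worms. It ranged from 6.38 to 7.45 in DR (median 7.04), from 5.67 to 6.94 in Rapa (median 6.36) and from 6.22 to 7.14 in AL (median 6.61), and all 3 groups overlapped. The difference of DR from Rapa was 0.60 ± 0.19 (adjusted p = 0.0394, limma). Against AL, DR gave 0.34 ± 0.19 (adjusted p = 0.289) and Rapa -0.26 ± 0.19 (adjusted p = 0.681). The call between DR and Rapa was lost on leaving out DR1, DR2, DR3, DR5, DR6, DR7, Rapa1, Rapa4, Rapa5, Rapa6 or Rapa8, with a highest adjusted p of 0.0871.

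Mrps16, a further small subunit protein with a bacterial counterpart, ranged from 8.43 to 9.30 in DR (median 8.94), from 8.26 to 8.78 in Rapa (median 8.44) and from 8.24 to 8.95 in AL (median 8.64). The groups overlapped, with 6 of 8 DR arrays above every Rapa array. The difference was 0.41 ± 0.13 (adjusted p = 0.0462, limma). It stayed past the threshold only on leaving out AL1, AL5, AL6, DR1, DR5 or Rapa2, and was lost for each of the other 18 arrays (highest adjusted p = 0.104).

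By value, 60 of 71 tested members, or 84.5%, were higher in DR than in Rapa, against 48.6% of all genes, and the median difference was 0.16 against -0.01. The small subunit median was 0.24 and the large subunit median 0.15. The lowest values belonged to Mrps6 (-0.54 ± 0.21, adjusted p = 0.111, limma), Mrpl54 and Mrpl51 (-0.16 ± 0.20, adjusted p = 0.714), none of which passed. The comparison shares its arrays with both comparisons against AL, so the 3 are not independent. The 4 members called both against AL and against Rapa were Mrpl1, Mrpl2, Mrpl38 and Mrps30, and 30 members lay above AL in DR and below AL in Rapa. The share of all genes with either pattern was not counted, so whether either count is particular to the members is not known. Without the 8 marker-high arrays the calls were Mrpl1 (0.73, adjusted p = 0.0149, limma), Mrpl2 (0.80, 0.0114) and Mrps30 (0.83, 0.0152), and the median was 0.25. The other 5 lost their calls: Mrpl38 dropped to 0.25 (adjusted p = 0.53) and Mrps5 to 0.38 (0.366), whereas Mrps15 gave 0.96 (0.0765), Mrps9 0.65 (0.126) and Mrps16 0.51 (0.115). In this fit 7.18% of all genes were called, beside 3 of 71 members.

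**Figure D4:**
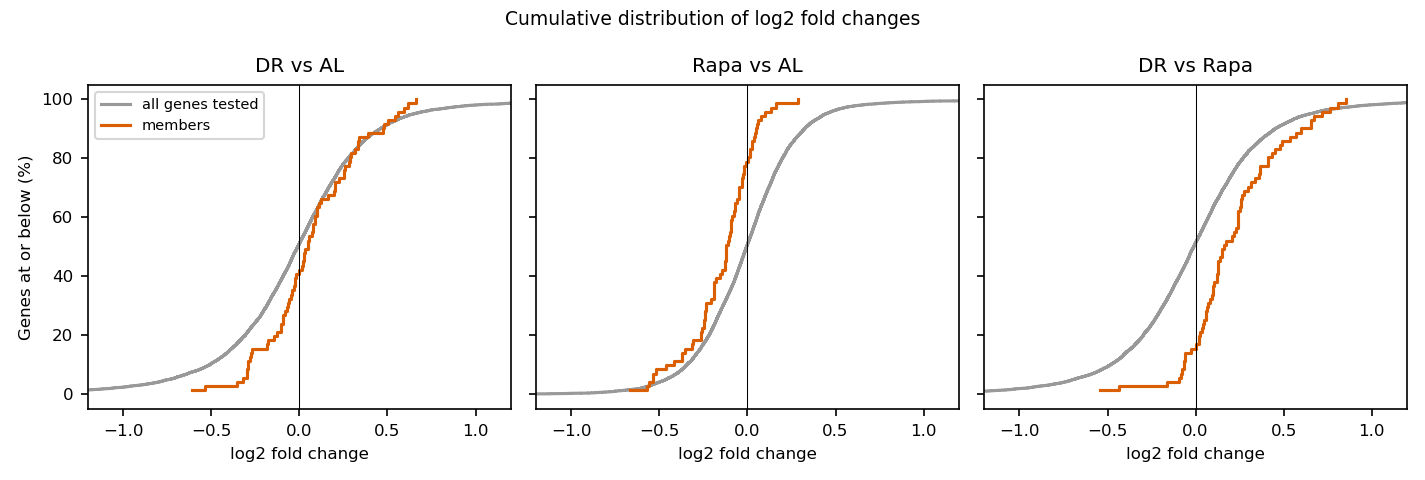
Cumulative share of genes (y axis, percent) at or below each log2 fold change (x axis) for the 71 tested members and for all 9836 genes, in the 3 comparisons. The members' median is 0.05, -0.12 and 0.16 from left to right, and the median of all genes is -0.01 in each. The left value turned negative with the authors' processed values (-0.005 in z units, beside -0.033 over all genes). It also turned negative with scaling over all probes (-0.302, beside -0.277 over all genes).

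The members Mrpl12, Mrps12, Mrpl3 and Mrpl44, read for their roles, passed no test in any of the 3 comparisons. Mrpl12, the stalk protein that also binds mitochondrial RNA polymerase, gave 0.12 ± 0.14 in DR and -0.15 ± 0.14 in Rapa, each against AL. The decoding-centre protein Mrps12 gave -0.02 ± 0.17 and 0.06 ± 0.17. Mrpl3, near the peptide-bond centre, gave 0.08 ± 0.14 and 0.05 ± 0.14, and Mrpl44, which has a ribonuclease fold, gave -0.09 ± 0.13 and -0.13 ± 0.13. The 95% interval of DR against AL was -0.15 to 0.40 for Mrpl12 and -0.36 to 0.32 for Mrps12, and changes within these bounds are not excluded.

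The paralogues Mrps18a, Mrps18b and Mrps18c, of which the first sits in the large subunit, showed different values without a call. For Rapa against AL they gave -0.25 ± 0.16, -0.54 ± 0.13 and -0.09 ± 0.21. For DR against AL they gave 0.20 ± 0.16, -0.28 ± 0.13 and 0.03 ± 0.21. The differences between the paralogues were not tested. Over the 71 members the SE of a log2 fold change lay between 0.11 and 0.32, and the 95% interval stayed within 1.5-fold of no change for 39 members in DR against AL, 48 in Rapa against AL and 40 in DR against Rapa.

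Probes of a gene did not always move together. Of the members, 25 had more than 1 kept probe, and the sign differed between probes for 11 of them in DR against AL, 8 in Rapa against AL and 6 in DR against Rapa. In DR against AL these were Mrpl10, Mrpl13, Mrpl15, Mrpl37, Mrpl38, Mrpl43, Mrpl47, Mrpl49, Mrpl51, Mrps10 and Mrps33. In Rapa against AL they were Mrpl3, Mrpl9, Mrpl43, Mrpl48, Mrpl51, Mrps12, Mrps26 and Mrps33, and in DR against Rapa Mrpl15, Mrpl38, Mrpl51, Mrps12, Mrps25 and Mrps33. Calls differed for Mrpl1, Mrpl15 and Mrpl38 in DR against AL, and for these 3 with Mrps15 and Mrps31 in DR against Rapa. Mrpl15 had 6 kept probes, of which a dim probe detected on 10 arrays passed in DR against AL (0.58, adjusted p = 0.0214, limma) while the brightest gave 0.33 (adjusted p = 0.224).

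Array brightness moved with the replicate number in every group: it was lowest for numbers 1 and 5 (means of 18.3 to 27.3) and highest for 2 and 6 (76.3 to 102). The file headers name no slides, and whether these numbers mark slides is not known. Within the 4 sets of numbers of like brightness (1 and 5, 2 and 6, 3 and 7, 4 and 8), the members' median was 0.06 to 0.14 for DR against AL, from -0.19 to -0.08 when Rapa was set against AL, and 0.13 to 0.29 for DR against Rapa. The rise of Mrps30 in DR was 0.50 to 0.82 within these sets, that of Mrpl1 0.37 to 0.73 and that of Mrpl2 0.15 to 0.75.

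Genes that work with the ribosome were compared next. Of all genes, 11.7% were called in DR against AL, 0.153% in Rapa against AL and 11.4% in DR against Rapa. The lists are small, and their shares were not tested against these. Of 12 tested translation factors, 0 passed in DR against AL and 1 in DR against Rapa, the elongation factor Tufm (0.57 ± 0.13, adjusted p = 0.00330, limma). Of 14 tested genes of ribosome assembly and ribosomal RNA modification, 0 passed against AL and 3 were higher in DR than in Rapa. These were Mterf4 (0.52, adjusted p = 0.0125), a partner of the ribosomal RNA methyltransferase Nsun4, the assembly GTPase Noa1 (0.57, 0.0176) and the methyltransferase Mrm3 (0.52, 0.00782). Of 7 tested genes of mitochondrial transcription and RNA stability, Mterf1a rose in DR against AL (0.48, adjusted p = 0.0204). This call was lost with the authors' processed values (adjusted p = 0.347, limma). Of the 3 tested ribosomal proteins with other symbols, 0 passed in any comparison, and Dap3, the small subunit's GTP-binding protein, gave -0.29 ± 0.11 for Rapa against AL (adjusted p = 0.404).

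Among regulators of mitochondrial biogenesis, 1 was called higher and 1 lower in DR against AL. Of all genes, 5.2% were called higher and 6.5% lower in that comparison, and 5.88% were called higher in DR than in Rapa. Of 7 tested, the coactivator Ppargc1b was higher in DR than in AL (1.19 ± 0.25, adjusted p = 0.00230, limma) and than in Rapa (1.28 ± 0.25, adjusted p = 0.00105). Its relative Pprc1 fell in DR against AL (-0.94 ± 0.25, adjusted p = 0.0134). Pprc1 was detected on 6 of 8 DR arrays. With the median of the epididymis and testis markers as a covariate, Pprc1 gave -0.42 (adjusted p = 0.385, limma). The nuclear receptor Esrra was higher in DR than in Rapa (0.48 ± 0.14, adjusted p = 0.0290), a call lost with the authors' processed values (adjusted p = 0.209, limma). Nrf1, whose motif was searched above, gave 0.31 ± 0.21 for DR against AL (adjusted p = 0.393), and Gabpa, the ETS factor, gave -0.39 ± 0.19 (adjusted p = 0.233). In Rapa against AL, 0 genes of these 5 lists passed. Without the 8 marker-high arrays, Esrra in DR against Rapa kept its call (0.75, adjusted p = 0.0424) and the others named here lost theirs. Against AL, Ppargc1b gave 0.85 (adjusted p = 0.175), Pprc1 -0.42 (0.262) and Mterf1a 0.56 (0.0770). Against Rapa, Noa1 gave 0.16 (0.692), Mrm3 0.22 (0.467), Tufm 0.37 (0.215), Mterf4 0.48 (0.135) and Ppargc1b 0.73 (0.215).

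The respiratory chain, whose mitochondrial subunits this ribosome makes, was read through 71 tested nuclear-encoded subunits. In DR against AL 8 rose and 0 fell, with a median of 0.23, in Rapa against AL 0 rose and 1 fell, with a median of -0.17, and in DR against Rapa 21 were higher and 0 lower, with a median of 0.39. Of all genes, 11.7%, 0.153% and 11.4% were called in that order, with 5.2%, 0% and 5.88% called higher. The members' medians in the same order were 0.05, -0.12 and 0.16. The 49 tested cytosolic ribosomal proteins had medians of 0.01, 0.08 and -0.07, and 1 rose in DR against AL. The differences between these lists were not tested, and the respiratory chain and cytosolic lists were not read without the 8 marker-high arrays.

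Members with and without a promoter motif were set side by side without a test. The 26 tested members with CCGGAAG had medians of 0.03, -0.09 and 0.12 in the order DR against AL, Rapa against AL and DR against Rapa, and the 37 without had 0.08, -0.13 and 0.23. For AAGATGGCG the 8 members with it had 0.09, -0.22 and 0.25 and the 55 without 0.04, -0.12 and 0.14. The 5 tested members with CGCATGCG had 0.16, -0.03 and 0.26 and the 58 without 0.04, -0.12 and 0.13. Called members fell on both sides: Mrps30, Mrpl1 and Mrpl2 hold none of the motifs, Mrps16 holds CCGGAAG at 2 places and Mrps24 holds AAGATGGCG just after its start.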

How the data were processed

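Messenger RNA was measured on 24 Illumina mouse bead arrays. Per the labels' protocols, a Qiagen RNeasy kit gave the RNA and an Illumina TotalPrep kit the labelled cRNA. The intensity values deposited by the authors are linear, not normalized between arrays and already background-subtracted, as their values below 0 show. Per the file headers, each deposited intensity has its own detection p-value. The authors' processed score, deposited separately, is by its values a z-score of log intensity within each array with an unknown log base. Its differences are in z units, and it served only as an alternative. The scanner software is not given in the sources used here.

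Normalization used neqc of limma 3.58.1 (R 4.3.3) with an offset of 16, background from the detection p-values, quantiles and log2. Kept were the 17165 probes whose detection p was below 0.05 on 8 arrays or more. The platform's annotation gave 34885 probes 1 symbol and 18 several, 10378 are absent from it, and an update through a GRCm38.p6 gene table changed 0 symbols. A gene was its kept probe with the highest mean (9836 genes). All 24 arrays entered 1 limma fit of group means (21 residual degrees of freedom), with two-sided tests, Benjamini-Hochberg adjustment over all kept probes and calls at an adjusted p under 0.05. Log2 fold changes carry the SE of the fit and levels the SD, and the number of arrays limits the precision. The fitting code was tested on simulated data.

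Given in full were members called in any comparison, the 3 largest rises and falls by value in each, and Mrps5, Mrpl12, Mrps12, Mrpl3, Mrpl44, Mrps18a, Mrps18b and Mrps18c for their roles, 26 in all. Members whose probes disagree and pathway genes that were called were named too. Members and lists were chosen with earlier results of these data known. Promoter sequences are RefSeq's, GRCm38.p6. Mrpl13, Mrpl15, Mrpl19, Mrpl38, Mrpl4, Mrpl54, Mrps28, Mrps34 and Mrps35 had no entry. Alternatives changed the scaling, the filter, the probe of a gene, array weights, blocks and arrays left out.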

Additional observations from a re-analysis of the deposited data

Results flagged for a closer look

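In 81 sets of 8 values (the 26 fully described members and the median of the members, in each group), 4 held an array far from the other 7 by Dixon's test at its 95% critical value. Chance alone gives about 1 such set in 20. Mrpl55 was low in AL8, at 5.25 with the next value at 6.5, and in Rapa1, at 4.43 with the next at 6.14. The probe was detected on 7 of 8 arrays in each of these groups. Mrpl57 was high in DR1, at 6.87 with the next at 5.95, and DR1 is among the 8 arrays high in epididymis and testis markers. Mrps24 was high in AL1, at 12.02 with the next at 11.52. Among the values of its rise in DR with single arrays left out, the highest was 0.47 (adjusted p = 0.00742, limma), and AL1 is not among the arrays whose loss ended the call.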

How the results depend on the processing

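No called member changed direction under the alternatives run, but the median over the members in DR against AL turned negative under 2 of them, as given here. With the marker median as a covariate, DR against AL lost Mrpl1 (adjusted p = 0.0932, limma), Mrpl38 (0.146) and Mrpl54 (0.0771). With the mean of a gene's kept probes it lost Mrpl1 (0.227) and Mrpl38 (0.416), and with the authors' score Mrpl2 (0.0904). In DR against Rapa, Mrpl38 lost its call with the mean of kept probes (0.284). In DR against AL the count of called members was 0 with median scaling over all probes (chosen after seeing the data), 1 without the 8 marker-high arrays, 3 with the marker median as a covariate, 13 with the replicate number as a block and 14 with the brightness sets as a replicate block (chosen after seeing the data), against 6. In Rapa against AL it was 1 (Mrps22) with the number block, 2 with the brightness block, 2 with array weights and 1 (Mrps18b) without AL1, against 0. In DR against Rapa it was 0 with scaling over all probes, 15 with the mean of a gene's kept probes, 18 and 19 with these blocks and 3 without the marker-high arrays, against 8. The cause of these differences was not tested, except that fewer arrays enter the fit without the marker-high ones. The share of all genes called moved as well. For DR against AL it was 5.86%, 4.77%, 7.64%, 19.2% and 19.9% in the order above, against 11.7%. For Rapa against AL it was 1.23%, 1.57%, 0.488% and 0.366%, against 0.153%. For DR against Rapa it was 2.87%, 12.7%, 17.9%, 19.2% and 7.18%, against 11.4%. The median of the members moved to -0.302 in DR against AL and -0.393 in Rapa against AL with scaling over all probes, which moved the median of all genes to -0.277 and -0.21. With the authors' score the members' median in DR against AL was -0.005, in z units, beside -0.033 over all genes. Leaving out 1 array at a time gave 5 to 9, 0 to 1 and 6 to 10 calls and medians of 0.019 to 0.083, -0.143 to -0.095 and 0.159 to 0.214 in the order of the report. Over all genes, the share of calls that were higher in DR than in AL was 44.4%, 35.8% with the authors' score, 11.6% with scaling over all probes and 54.6% with the covariate; for DR against Rapa it was 51.5%, and 39.7% with scaling over all probes.

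Deviations from group means correlated between same-numbered arrays of different groups with a mean r of 0.243 (-0.069 to 0.553, over 0.1 in 19 of 24 pairs) and between other arrays of the same brightness set with 0.192 (18 of 24), against -0.068 across sets (29 of 144). The arrays thus share structure by number or set, although not every pair exceeded 0.1, and 9 of 24 arrays correlated best with their own number. These values are no ground for leaving the block out. The fit without a block was kept because the labels name no pairing, and the counts with the blocks are given beside it. With the blocks, all genes called in Rapa against AL rose from 15 to 121 and 154, of which 24% and 28.6% were higher, and in DR against AL from 1150 to 1886 and 1953. A slide block was not run, since the file headers name no slides. Members near the background (Mrps2, Mrps27, Mrpl57, Mrpl55) have imprecise changes, and 5 members could not be tested.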

Other observations

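Some members lie head to head with another gene. In RefSeq's GRCm38.p6 promoter table, 21 of the 67 members it holds start within 300 bases of a gene on the opposite strand. On the arrays 14 of these neighbours were tested. The share of all genes with such a neighbour was not counted. Mrpl46 and Mrps11 are such a pair with each other, and for DR against AL they gave -0.03 (adjusted p = 0.930, limma) and -0.29 (adjusted p = 0.275). Mrpl2, which rose in DR, faces the kinesin light chain gene Klc4, which gave -0.05 (adjusted p = 0.877). Mrpl43 faces Twnk, the mitochondrial DNA helicase, and for DR against Rapa they gave 0.32 (adjusted p = 0.278) and 0.37 (adjusted p = 0.282). Mrps12 faces the mitochondrial seryl-tRNA synthetase gene Sars2, with -0.02 (adjusted p = 0.966) and 0.33 (adjusted p = 0.350) for DR against AL. Whether facing genes move together was not tested.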
